A study of Mus musculus with 11 samples.

Results

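The genes described here are 40 genes that make cholesterol and fatty acids, or that control, carry or export their products, out of 55414 genes in the deposited count table. They were chosen by symbol for their roles; the rule sets no measured value, but the choice was made with earlier results of these data known. All 40 were found and passed the filter on low counts. By role, 18 encode enzymes of sterol synthesis (7 of the mevalonate pathway and 11 from squalene to cholesterol). A further 6 encode parts of the sterol-sensing system and a sterol carrier, 2 encode efflux transporters, and 14 encode enzymes that make, desaturate, elongate or activate fatty acids. RNA was measured in CD8+ T cells of OT-I mice, whose T cells bear a transgenic receptor that recognises a peptide of ovalbumin. All cells were taken at 12 h. Cells without treatment gave 4 naive libraries. The 4 stimulated libraries are of cells given the solvent DMSO and the peptide N4, and the 3 Torin libraries of cells given N4 and Torin, an inhibitor of the kinase mTOR. All groups share the OT-I genotype. The labels give no dose, strain, age, purity of the cells or tie between libraries and animals. The p-values therefore rest on the spread among libraries alone, and that spread may be technical.

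Cells build cholesterol from acetyl-CoA through mevalonate, the isoprenoid farnesyl diphosphate, squalene and lanosterol. When sterol in the endoplasmic reticulum is low, SCAP carries the transcription factors SREBP1 and SREBP2 to the Golgi, where they are cut and released to switch on synthesis genes. INSIG proteins hold SCAP back when sterol is plentiful, and oxysterols then activate LXR, which raises the efflux transporters ABCA1 and ABCG1. Fatty acid synthesis starts from the same acetyl-CoA. Activated T cells are known to take up this programme before they divide, and mTOR complex 1 is known to promote SREBP activity.

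The start sites of these genes are where SREBP and its partner factors can bind, so promoters were read for 4 short motifs. RefSeq promoters (GRCm38.p6, from 250 bases before to 50 bases after the annotated start) were found for 32 of the 40 genes. None was matched for Stard4, Scd2, Sqle, Fads1, Fdps, Scd1, Abcg1 and Fdft1. The counts themselves were made on mm39, so coordinates apply to the RefSeq build only. The CCAAT box (CCAAT, or ATTGG on the other strand), bound by the SREBP partner NF-Y, was in a promoter of 14 of 15 sterol synthesis genes (93.3%), 8 of 11 fatty acid genes (72.7%) and 41.1% of all genes with a promoter. The GC box (GGGCGG, both strands) was in 14 of 15 sterol synthesis genes, 6 of 11 fatty acid genes (54.5%) and 38.2% of all genes. The E-box CACGTG was in 3 of 15 sterol synthesis genes (20%), 1 of 11 fatty acid genes (9.1%) and 8.1% of all genes. A classical sterol regulatory element, TCACNCCAC on either strand, was found only in Hmgcs1 among the 32 genes, and in 1.4% of all genes. Different motifs overlapped each other at 1 place in these promoters. Overlaps of a motif with itself, as in CCAATTGG of Fasn, were not counted. The shares of all genes cover 27025 genes with a promoter, whether or not they passed the filter on low counts, which all 40 genes passed. Shares among genes that passed were not taken. A match describes letters and does not show a bound site. The promoters below are of Hmgcs1, which carries the sterol element, and of Idi1, Cyp51, Ebp, Tm7sf2 and Fasn, whose levels changed with stimulation. Ebp and Tm7sf2 are the sterol synthesis genes that fell, and genes of other roles with larger falls are not shown. Each reads 5′ to 3′ toward the gene, with CCAAT boxes and the Hmgcs1 sterol element TCACCCCAC in capitals.
Hmgcs1 promoter, chr13:119690101-119690400, plus strand: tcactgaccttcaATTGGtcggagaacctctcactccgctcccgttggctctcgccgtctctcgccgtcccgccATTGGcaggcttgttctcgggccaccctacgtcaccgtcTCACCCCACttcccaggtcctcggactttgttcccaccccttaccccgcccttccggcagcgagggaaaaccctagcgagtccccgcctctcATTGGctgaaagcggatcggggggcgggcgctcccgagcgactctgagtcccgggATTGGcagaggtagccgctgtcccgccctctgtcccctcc
Idi1 promoter, chr13:8885356-8885655, plus strand: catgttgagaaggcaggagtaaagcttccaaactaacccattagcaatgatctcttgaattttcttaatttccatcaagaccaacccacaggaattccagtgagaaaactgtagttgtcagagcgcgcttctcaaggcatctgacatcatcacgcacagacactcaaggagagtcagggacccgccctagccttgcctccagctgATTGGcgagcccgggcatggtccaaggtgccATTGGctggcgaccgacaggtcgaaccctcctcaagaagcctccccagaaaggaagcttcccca
Cyp51 promoter, chr5:4104648-4104947, minus strand: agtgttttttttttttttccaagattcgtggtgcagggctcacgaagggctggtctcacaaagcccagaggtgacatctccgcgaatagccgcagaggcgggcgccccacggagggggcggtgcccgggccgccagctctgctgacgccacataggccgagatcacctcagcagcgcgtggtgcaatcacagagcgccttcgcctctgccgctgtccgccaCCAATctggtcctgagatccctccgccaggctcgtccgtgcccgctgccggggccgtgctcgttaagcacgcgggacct
Ebp promoter, chrX:8193463-8193762, minus strand: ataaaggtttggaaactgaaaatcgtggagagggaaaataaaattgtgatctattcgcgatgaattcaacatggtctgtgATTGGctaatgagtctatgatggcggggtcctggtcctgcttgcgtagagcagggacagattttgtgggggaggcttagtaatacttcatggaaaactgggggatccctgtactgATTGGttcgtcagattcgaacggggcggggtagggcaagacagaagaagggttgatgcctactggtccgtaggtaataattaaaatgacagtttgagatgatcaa
Tm7sf2 promoter, chr19:6067801-6068100, minus strand: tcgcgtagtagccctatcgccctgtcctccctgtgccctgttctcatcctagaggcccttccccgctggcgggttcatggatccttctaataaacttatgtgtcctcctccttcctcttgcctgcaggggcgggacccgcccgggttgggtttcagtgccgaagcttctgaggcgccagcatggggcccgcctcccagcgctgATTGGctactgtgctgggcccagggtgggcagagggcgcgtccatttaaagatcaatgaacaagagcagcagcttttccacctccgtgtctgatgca
Fasn promoter, chr11:120824498-120824797, minus strand: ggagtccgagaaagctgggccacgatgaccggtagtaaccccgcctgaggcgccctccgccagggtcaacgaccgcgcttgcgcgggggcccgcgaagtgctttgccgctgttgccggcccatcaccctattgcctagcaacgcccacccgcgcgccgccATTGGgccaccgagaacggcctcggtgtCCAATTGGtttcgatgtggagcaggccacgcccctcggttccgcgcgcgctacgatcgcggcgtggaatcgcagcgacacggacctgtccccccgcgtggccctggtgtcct
In these promoters the box nearest the start lay 14 bases upstream in Idi1, 29 in Cyp51, 47 in Tm7sf2, 55 in Ebp and 59 in Fasn, and the sterol element lay 137 bases upstream in Hmgcs1. Idi1 and Cyp51 rose with stimulation while Ebp and Tm7sf2 fell, so genes with CCAAT boxes stood on both sides of the results that follow. All promoters shown carry a CCAAT box. Among genes with none in the promoters read, Acaca and Scap rose with stimulation and Abca1, Fads2 and Elovl6 fell.

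Values are CPM, estimated counts per 1000000 in the library, with library size adjusted by a composition factor. The libraries summed to between 241865667 and 405884097 estimated counts, more than a sequencing library commonly gives. The labels do not say why, and no counting interval is given. T cell receptor and CD8 genes (Cd3d, Cd3e, Cd3g, Cd8a, Cd8b1 and Trac) were present in each library, with summed levels of 4979 to 6206 CPM in naive, 2118 to 2912 in stimulated and 3927 to 4138 in Torin libraries. Traces of other cells moved with the replicate number and with the groups. The sum of 8 B cell genes was 47400, 14390 and 13240 CPM in naive 4, stimulated 4 and Torin 4, nearly all of it Igkc, and 38.5 to 366 CPM elsewhere. The sum of 9 granulocyte genes was 8767 CPM in naive 2, 2099 in stimulated 2 and 16.5 to 178 elsewhere. The sum of 9 monocyte and macrophage genes was 2403 CPM in naive 2, 303 to 372 in the other naive libraries and 29.0 to 143 in stimulated and Torin libraries. In bulk RNA, fewer cells of a type and less RNA per cell cannot be told apart.

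Stimulation for 12 h came with higher RNA of 10 of 18 sterol synthesis genes (7 with library totals alone), while the fatty acid genes split and both efflux transporter genes fell. Of 22238 genes tested in stimulated against naive cells, 39.5% passed an adjusted p of 0.05 by edgeR's quasi-likelihood test, 19.2% higher and 20.2% lower. Of the 40 genes described here, 17 rose, 8 fell and 15 did not pass. In sterol synthesis 10 rose, 2 fell and 6 did not pass, with a median log2 change of 0.97 beside -0.22 over all genes tested. In the fatty acid branch 4 rose, 4 fell and 6 did not pass, with a median of -0.17. The difference between the branches is a description of counts and medians and was not tested.

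**Figure D1:**
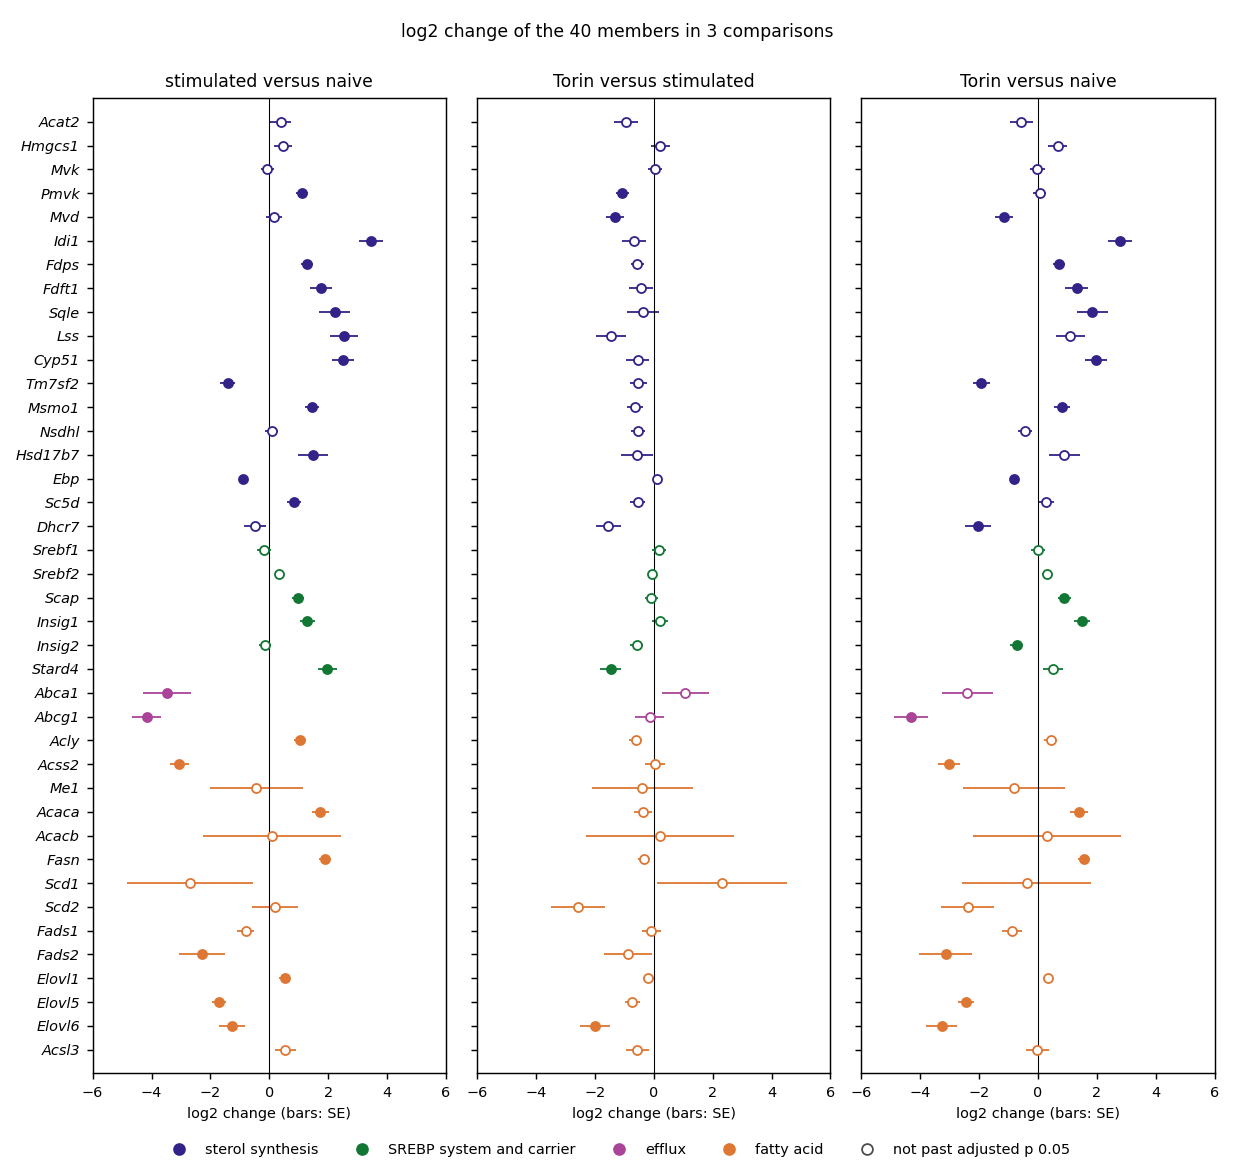
Log2 change (horizontal axis, bars show the SE) of each of the 40 genes, in order of role, in stimulated against naive, Torin against stimulated and Torin against naive libraries. Filled points passed an adjusted p of 0.05: 17 rose and 8 fell with stimulation, 4 fell with Torin and none rose.

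The mevalonate pathway makes the isoprene units of sterols, and its largest rise was that of Idi1, the isopentenyl diphosphate isomerase (ENSMUSG00000058258.15). Idi1 stood at 9.70, 4.85, 2.42 and 3.77 CPM in naive 1 to 4 and at 59.8, 57.5, 53.8 and 55.5 CPM in stimulated 1 to 4. The stimulated libraries lay close together, all far above the highest naive library. The mean rose from 5.18 ± 3.17 to 56.6 ± 2.58 CPM (SD, n = 4 each), a log2 change of 3.45 (SE 0.41, adjusted p = 7.66e-05 by edgeR). Fdps, which makes farnesyl diphosphate, rose by 1.27 on the log2 scale, from 50.8 ± 10.96 to 122 ± 26.8 CPM (adjusted p = 0.000501). Pmvk, the phosphomevalonate kinase, rose from 26.2 ± 5.37 to 56.8 ± 13.7 CPM, a log2 change of 1.12 (adjusted p = 0.00138). Libraries did not overlap for any of these 3 genes.

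The other 4 mevalonate genes did not pass. Hmgcs1, the HMG-CoA synthase at the head of the pathway and the gene with the sterol element shown above, stood at 7.81, 6.72, 5.13 and 7.43 CPM in naive 1 to 4. In stimulated 1 to 4 it stood at 10.04, 7.96, 6.97 and 12.1 CPM. The groups overlapped, although each stimulated library was above the naive library of its number (log2 change 0.45, SE 0.30, adjusted p = 0.258). Acat2, a cytosolic thiolase, had a log2 change of 0.38, Mvd, the mevalonate diphosphate decarboxylase, 0.16, and Mvk, the mevalonate kinase, -0.07. These small values depend on the scaling: with library totals alone Hmgcs1, Acat2 and Mvd had log2 changes of -0.01, -0.10 and -0.32, none past the threshold.

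From squalene to cholesterol, 7 of 11 genes rose and 2 fell. The largest rise was that of Lss, the lanosterol synthase that closes the sterol rings. Lss stood at 4.24, 2.85, 1.49 and 0.881 CPM in naive 1 to 4 and at 21.1, 10.9, 8.51 and 14.6 CPM in stimulated 1 to 4. Every stimulated library was above every naive library, and the log2 change was 2.54 (SE 0.48, adjusted p = 0.00159). Sqle, the squalene epoxidase and a control point of the pathway, stood at 8.88, 5.50, 1.40 and 2.72 CPM in naive cells and 27.1, 18.7, 16.8 and 23.4 CPM in stimulated libraries. It rose by 2.22 on the log2 scale (SE 0.51, adjusted p = 0.00534), and the groups again did not overlap. Cyp51, the lanosterol demethylase, averaged 4.47 ± 2.03 CPM in naive cells and 25.3 ± 7.33 CPM in stimulated libraries and rose by 2.50 (adjusted p = 0.000295). Fdft1, the squalene synthase, rose by 1.75 and Msmo1, the methylsterol monooxygenase, by 1.45. Hsd17b7, a ketosteroid reductase, rose by 1.48 and Sc5d, the lathosterol desaturase, by 0.83. Nsdhl, another demethylation enzyme, and Dhcr7, the last reductase of the Kandutsch-Russell route, had log2 changes of 0.08 and -0.50 and did not pass.

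The falls were those of Tm7sf2 and Ebp. Tm7sf2, a sterol reductase, stood at 9.78, 10.5, 10.03 and 5.78 CPM in naive 1 to 4 and at 3.06, 3.98, 2.85 and 3.72 CPM in stimulated 1 to 4. All stimulated libraries were below the lowest naive library (log2 change -1.41, SE 0.26, adjusted p = 0.00124). Ebp, the sterol isomerase, was the highest of the 40 genes per length in naive cells and fell to 50.3 ± 3.54 CPM from 94.6 ± 3.50 CPM in naive libraries (log2 change -0.91, adjusted p = 4.89e-05). Some reads cannot be assigned with certainty here. In GENCODE M21, exons of Fdps (26.7% of its exon bases), Fdft1 (18.3%), Scap (13.2%), Hmgcs1 (12.1%) and Tm7sf2 (12.1%) overlap another gene, and the labels do not say that counting used strand. Lower overlaps occur in a further 10 of the 40 genes.

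**Figure D2:**
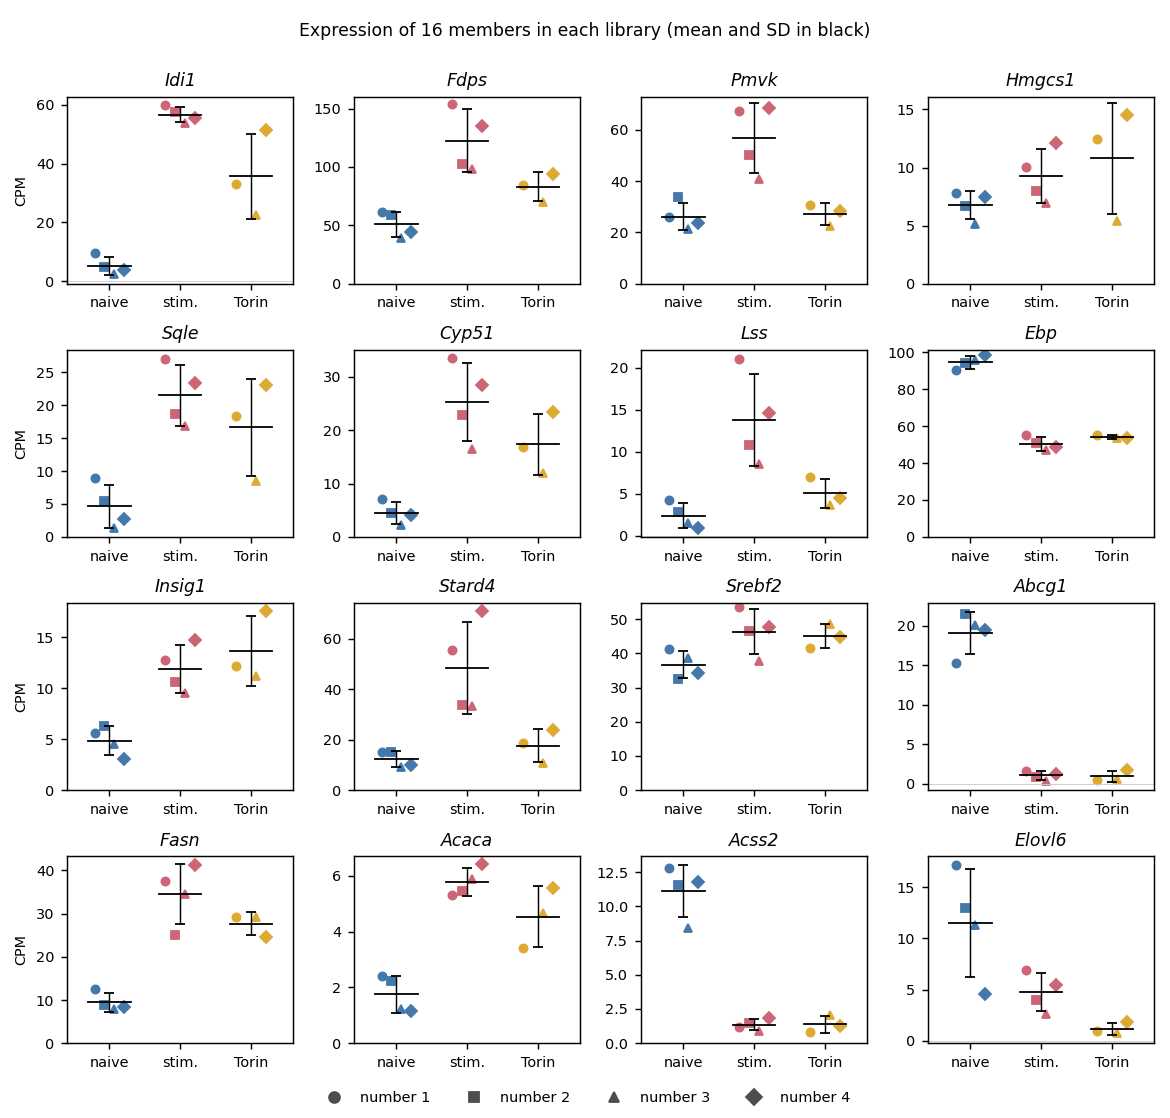
CPM (vertical axes) of 16 of the 40 genes in each library of the naive, stimulated and Torin groups, with symbols for the replicate number and the mean and SD in black. Idi1 lies between 53.8 and 59.8 CPM in stimulated libraries against 2.42 to 9.70 in naive libraries, and Abcg1 between 0.404 and 1.68 against 15.2 to 21.5.

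Of the sterol-sensing genes, 3 of 6 rose and none fell. Insig1, which holds SCAP in the endoplasmic reticulum and is itself an SREBP target, stood at 5.62, 6.27, 4.54 and 3.01 CPM in naive 1 to 4 and at 12.7, 10.6, 9.52 and 14.8 CPM in stimulated 1 to 4. It rose without overlap (log2 change 1.29, SE 0.26, adjusted p = 0.00204). Scap, the escort of SREBP, stood at 14.6, 12.5, 14.1 and 10.04 CPM in naive cells and 29.7, 23.9, 20.7 and 26.2 CPM in stimulated libraries. It also rose without overlap (log2 change 0.98, SE 0.21, adjusted p = 0.0035). Stard4, a cytosolic sterol carrier, stood at 15.1, 14.95, 9.17 and 10 CPM in naive cells and 55.4, 33.8, 33.2 and 70.9 CPM in stimulated libraries. Each stimulated library was above every naive one, with the highest values in stimulated 4 and 1 (log2 change 1.97, SE 0.33, adjusted p = 0.000632).

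The genes of the transcription factors themselves did not pass edgeR's test. Srebf2, whose product favours sterol genes, stood at 41.4, 32.7, 38.5 and 34.3 CPM in naive 1 to 4 and at 53.6, 46.7, 37.7 and 47.7 CPM in stimulated 1 to 4. Stimulated 3 lay within the naive range, and the log2 change was 0.34 (SE 0.14, adjusted p = 0.0752). Without stimulated 3 it was 0.51 (adjusted p = 0.0105) and without Torin 4 0.43 (adjusted p = 0.0411). By DESeq2 it was 0.35 (adjusted p = 0.0304), while with library totals alone it was -0.14 (adjusted p = 0.619). Srebf1, whose products drive fatty acid genes as well, stood at 22.0, 19.5, 29.2 and 17.5 CPM in naive cells and 24.3, 16.1, 20.5 and 16.8 CPM in stimulated libraries, which overlapped (log2 change -0.18, adjusted p = 0.56). Insig2, the INSIG gene that does not depend on SREBP in the same way, stood at 35.3, 36.6, 27.8 and 44.0 CPM in naive cells and 40.1, 29.3, 28.9 and 31.8 CPM in stimulated libraries (log2 change -0.14, adjusted p = 0.608).

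Srebf1 gives a long protein form, SREBP-1a, and a short form, SREBP-1c, from different first exons. The transcript table holds 12 Srebf1 transcripts. Srebf1-201, which encodes the long form in 1134 codons, held 97.4% to 99.7% of Srebf1 counts in the 11 libraries. The only transcript with the start of the short form, Srebf1-207, has 1022 codons and held 0.0% to 0.9%. Whether reads of short-form RNA were assigned to Srebf1-201 was not tested. The share of the long form was higher by 0.602 percentage points in stimulated than in naive libraries, within the spread of the libraries (two-sided exact permutation p = 0.314, n = 4 and 4, smallest possible p 0.0286). The difference between Torin and stimulated libraries was -0.171 points (exact permutation p = 0.8, n = 3 and 4, smallest possible p 0.0571). With n = 3 and 4 this test cannot reach a p of 0.05.

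Both cholesterol efflux genes fell with stimulation. Abcg1, which moves cholesterol to lipoprotein particles (ENSMUSG00000024030.8), stood at 15.2, 21.5, 20.1 and 19.4 CPM in naive 1 to 4 and at 1.68, 0.894, 0.404 and 1.27 CPM in stimulated 1 to 4. No stimulated library came near the naive range. The log2 change was -4.17 (SE 0.51, adjusted p = 8.27e-05), the largest among the 40 genes. Abca1, which lipidates apolipoprotein A, was low throughout, at 0.275, 1.20, 0.586 and 1.20 CPM in naive cells and 0.0558, 0.0286, 0.0721 and 0.136 CPM in stimulated libraries. It fell without overlap (log2 change -3.47, SE 0.81, adjusted p = 0.00554). Monocyte and macrophage genes, whose cells are rich in both transporters, summed to 303 to 2403 CPM in naive cells and 31.5 to 143 CPM in stimulated libraries. Abcg1 in naive 2, the library with the 2403 CPM, was 21.5 CPM against 15.2 to 20.1 CPM in the other naive libraries. The part of other cells in the Abcg1 and Abca1 values was not tested.

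Among genes of acetyl-CoA and NADPH supply, the citrate and acetate routes went in opposite directions. Acly, the ATP citrate lyase that makes cytosolic acetyl-CoA from citrate, stood at 23.7, 15.7, 14.4 and 15.9 CPM in naive 1 to 4 and at 43.8, 36.8, 26.8 and 35.8 CPM in stimulated 1 to 4. All stimulated libraries were higher than naive 1, the highest naive library (log2 change 1.04, SE 0.20, adjusted p = 0.00165). Acss2, which makes acetyl-CoA from acetate (ENSMUSG00000027605.19), stood at 12.8, 11.5, 8.39 and 11.8 CPM in naive cells and at 1.15, 1.49, 0.913 and 1.81 CPM in stimulated libraries. It fell with a wide gap between the groups (log2 change -3.05, SE 0.33, adjusted p = 4.35e-05). Me1, the cytosolic malic enzyme, stayed at or below 0.413 CPM in all libraries.

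The committed steps of fatty acid synthesis rose. Fasn, the fatty acid synthase, stood at 12.6, 8.82, 7.95 and 8.30 CPM in naive 1 to 4 and at 37.5, 25.2, 34.5 and 41.4 CPM in stimulated 1 to 4. The lowest stimulated library was stimulated 2, still above every naive library (log2 change 1.88, SE 0.20, adjusted p = 3.87e-05). Acaca, the acetyl-CoA carboxylase that supplies malonyl-CoA to the synthase, stood at 2.42, 2.23, 1.22 and 1.14 CPM in naive cells and at 5.31, 5.46, 5.91 and 6.43 CPM in stimulated libraries. It rose without overlap (log2 change 1.72, SE 0.29, adjusted p = 0.000707). Acacb, the carboxylase of mitochondrial membranes, was at most 0.0918 CPM in any library.

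Desaturases and elongases mostly did not follow the synthase. Fads2, which starts the desaturation of polyunsaturated fatty acids, stood at 4.59, 4.80, 3.67 and 9.69 CPM in naive 1 to 4 and at 1.26, 2.14, 0.413 and 0.885 CPM in stimulated 1 to 4, and fell (log2 change -2.28, SE 0.78, adjusted p = 0.0377). Fads1, its partner in the same pathway, had a log2 change of -0.81 (adjusted p = 0.0547), and with the replicate number as a block -0.79 (adjusted p = 0.0497). By DESeq2 Fads1 passed at -0.80 (adjusted p = 0.0286). Scd2, a stearoyl-CoA desaturase, stood at 1.83, 3.22, 1.99 and 6.54 CPM in naive cells and 6.37, 2.80, 1.76 and 4.603 CPM in stimulated libraries, which overlapped widely (log2 change 0.19, adjusted p = 0.869). Scd1, its paralog, stood at 0.0106, 0.0761, 0.0411 and 1.24 CPM in naive cells and 0.0558, 0, 0.0144 and 0.140 CPM in stimulated libraries. Only naive 4, the library with 47400 CPM of B cell genes, was near 1 CPM, and reads shared between Scd1 and Scd2 would be uncertain.

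The elongases showed both directions. Elovl5, which lengthens polyunsaturated chains, stood at 38.3, 28.6, 45.5 and 37.0 CPM in naive 1 to 4 and at 14.3, 10.1, 8.29 and 13.0 CPM in stimulated 1 to 4. It fell without overlap (log2 change -1.71, SE 0.24, adjusted p = 0.000228). Elovl1, which makes very long saturated chains and was the highest fatty acid gene per length, stood at 127, 115, 101 and 84.3 CPM in naive cells and 183, 121, 134 and 173 CPM in stimulated libraries. It rose, although stimulated 2 lay within the naive range (log2 change 0.52, SE 0.17, adjusted p = 0.0336). Elovl6, which lengthens palmitate, stood at 17.2, 13.0, 11.3 and 4.55 CPM in naive cells and 6.88, 4.01, 2.6 and 5.48 CPM in stimulated libraries. It fell with overlap, naive 4 being within the stimulated range (log2 change -1.28, SE 0.44, adjusted p = 0.0397). Acsl3, an acyl-CoA ligase of lipid droplets, had a log2 change of 0.54 and did not pass.

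How firm these calls are differed between genes. Of the 25 calls with stimulation, 17 held under each of up to 20 other settings, and these include Idi1, Fdps, Lss, Sqle, Cyp51, Ebp, Abca1, Abcg1, Acss2, Acaca, Fasn and Elovl5. With library totals alone all genes had a median log2 change of -0.71, 28.5% of called genes were higher against 48.7% in the main fit, and the 40 genes gave 11 rises and 9 falls, beside 11.7% and 29.4% of all genes. Pmvk, Scap and Acly missed the threshold only in that setting, with log2 changes of 0.66, 0.50 and 0.56. Elovl1, Sc5d and Hsd17b7 also missed it there, at 0.04 (adjusted p = 0.91), 0.38 (adjusted p = 0.31) and 1.04 (adjusted p = 0.138), while Fads1 passed at -1.27. The call of Sc5d also ended without stimulated 4 (log2 change 0.71). The call of Hsd17b7 ended without any of naive 1, naive 4, stimulated 1, 2 and 4 and Torin 3 (1.18 to 1.57). The call of Fads2 ended without any of naive 1, 2 and 4 and stimulated 1, 3 and 4 (-2.37 to -1.89). The call of Elovl1 also ended with no filter (0.50) and without any of naive 3 and 4, stimulated 1 and 4 and Torin 1 (0.42 to 0.52). The call of Elovl6 ended without any of naive 1, 2 and 3, stimulated 2, 3 and 4 and Torin 1 (-1.35 to -0.97). Fads1 passed without naive 3 (-0.997) or stimulated 1 (-0.94), and Acsl3 without naive 2 (0.93).

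Summed levels were also compared by branch. The sterol synthesis genes summed to 342, 320.4, 258 and 272 CPM in naive 1 to 4 and to 645, 479, 411 and 602 CPM in stimulated 1 to 4. The lowest stimulated sum was above the highest naive one. The fatty acid genes summed to 247, 209.9, 199 and 186 CPM in naive cells and 305, 214, 218 and 287 CPM in stimulated libraries, and these overlapped. The efflux genes summed to 15.5, 22.7, 20.7 and 20.6 CPM in naive cells and 1.73, 0.923, 0.476 and 1.40 CPM in stimulated libraries. Libraries of the stimulated group fell below or rose above the whole naive range in 23 of the 40 genes. Of these 16 were higher, 40% of the 40 genes beside 19.8% of all genes, and 7 were lower, 17.5% beside 21.7%.

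**Figure D3:**
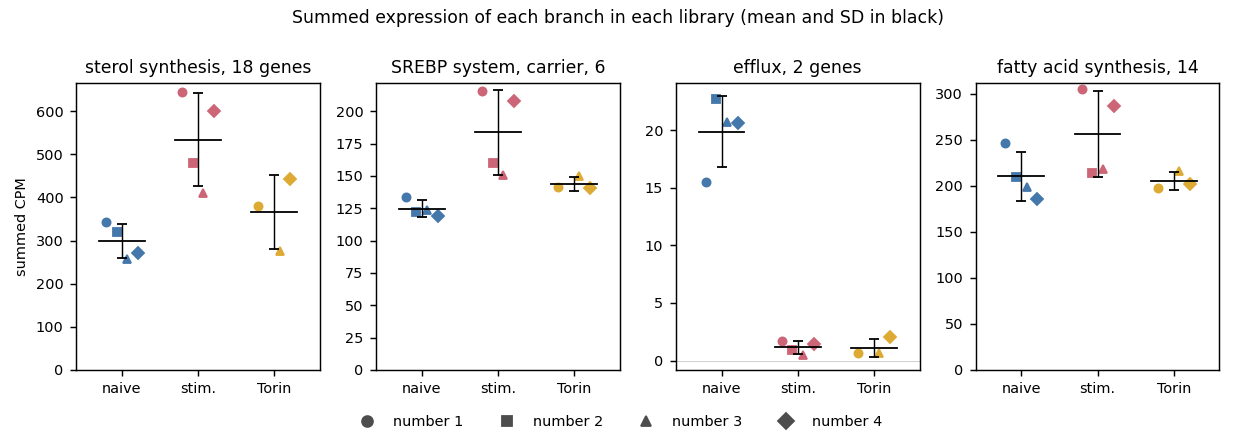
Summed CPM (vertical axes) of the sterol synthesis, sterol-sensing and carrier, efflux and fatty acid genes in each library, with the mean and SD in black. Sterol sums in stimulated libraries run from 411 to 645 CPM against 258 to 342 in naive libraries, while fatty acid sums overlap between all groups.

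The comparison of Torin with stimulated libraries asked how these levels stood when mTOR was inhibited during stimulation. Torin came with lower RNA of 4 of the 40 genes and higher RNA of none, against stimulated cells. Of 22238 genes, 4.62% passed in this comparison, 2.32% higher and 2.3% lower. The 4 genes were Pmvk, Mvd, Stard4 and Elovl6. At an unadjusted p under 0.05, 14 of the 40 genes were lower and 0 higher, beside 10% and 9.97% of all genes. Over the 40 genes the median log2 change was -0.52, beside -0.02 over all genes tested, and it was -0.55 for sterol synthesis and -0.37 for fatty acid genes. This comparison uses the same stimulated libraries as the first, so a high stimulated library enters both with opposite sign.

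Pmvk stood at 67.6, 50.2, 40.7 and 68.7 CPM in stimulated 1 to 4 and at 30.7, 22.6 and 28.4 CPM in Torin 1, 3 and 4. All Torin libraries were below the lowest stimulated library and within the range of naive libraries, 21.4 to 33.7 CPM (log2 change -1.06, SE 0.23, adjusted p = 0.0286). Mvd stood at 15.1, 7.88, 9.83 and 13.1 CPM in stimulated cells and 5.57, 3.27 and 4.93 CPM in Torin libraries (log2 change -1.32, SE 0.31, adjusted p = 0.0404). Here the Torin libraries were also below the naive range of 6.75 to 13.2 CPM.

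Stard4, the sterol carrier, stood at 18.7, 10.6 and 23.6 CPM in Torin 1, 3 and 4, against 33.2 to 70.9 CPM in stimulated libraries. It fell by 1.46 on the log2 scale (SE 0.36, adjusted p = 0.044), with Torin 1 and 4 somewhat above the naive range of 9.17 to 15.1 CPM. Elovl6 stood at 0.912, 0.775 and 1.87 CPM in Torin libraries, below every stimulated library (2.6 to 6.88 CPM). The log2 change was -2.001 (SE 0.50, adjusted p = 0.0484), and when the replicate number was a block the log2 change was -1.94 (adjusted p = 0.0812).

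Other genes had lower levels under Torin without passing. Without overlap between the groups, 13 of the 40 genes were lower and 0 higher, beside 10.1% and 9.56% of all genes. The 13 are the 4 above with Idi1, Fdps, Lss, Nsdhl, Dhcr7, Insig2, Acly, Scd2 and Acsl3. Idi1 stood at 33.2, 22.5 and 51.3 CPM in Torin 1, 3 and 4, between the stimulated and the naive ranges (log2 change -0.67, SE 0.41, adjusted p = 0.409). Scd2 stood at 0.446, 0.0537 and 1.44 CPM (log2 change -2.58, SE 0.92, adjusted p = 0.145), and with the block -3.27 (adjusted p = 0.0431). Dhcr7 had a log2 change of -1.54 (adjusted p = 0.0693), and of -1.80 without stimulated 3 (adjusted p = 0.0341).

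Several leading genes of the first comparison did not pass under Torin. Fasn stood at 29.1, 29.2 and 24.6 CPM in Torin 1, 3 and 4, within or just below the stimulated range (log2 change -0.33, SE 0.21, adjusted p = 0.436). Acaca stood at 3.398, 4.66 and 5.57 CPM (log2 change -0.35, adjusted p = 0.601). Sqle stood at 18.4, 8.54 and 23.0 CPM (log2 change -0.37, SE 0.54, adjusted p = 0.784) and Hmgcs1 at 12.4, 5.40 and 14.5 CPM (0.22, SE 0.32, adjusted p = 0.791). For both, Torin 3 was the low library. These p-values do not show that the levels were equal, and for Sqle the SE is larger than the change itself.

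Of the sterol-sensing genes, Insig1 stood at 12.2, 11.2 and 17.6 CPM in Torin 1, 3 and 4 (log2 change 0.20, adjusted p = 0.765). Scap stood at 21.9, 32.2 and 17.2 CPM (-0.08, adjusted p = 0.912). Srebf2 stood at 41.6, 48.6 and 44.9 CPM (-0.04, adjusted p = 0.931) and Srebf1 at 18.01, 29.5 and 18.5 CPM (0.18, adjusted p = 0.762). All 4 overlapped the stimulated range. Insig2 stood lower, at 28.8, 17.6 and 18.9 CPM (-0.58, SE 0.22, adjusted p = 0.169). The efflux genes stayed low, Abcg1 at 0.535, 0.617 and 1.74 CPM and Abca1 at 0.128, 0.0369 and 0.295 CPM. Scd1 was listed at 0 in Torin 1 and 3 and stood at 0.783 CPM in Torin 4, the library with 13240 CPM of B cell genes. Acss2 stood at 0.815, 2.07 and 1.26 CPM, as low as with stimulation alone (log2 change 0.04, SE 0.33).

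The Torin calls are the least firm. None of the 4 held under all 20 other settings. The call of Pmvk ended without any of stimulated 1, 2 and 4 and Torin 1, 3 and 4 (log2 change then -1.15 to -0.94), and that of Mvd without any of naive 3, stimulated 1 and 4 and Torin 1, 3 and 4 (-1.48 to -1.13). That of Elovl6 ended without any of naive 2 and 3, stimulated 1, 2 and 4 and Torin 1, 3 and 4 (-2.47 to -1.77). Stard4 ended without any single library other than stimulated 3 (-1.70 to -1.19). With library totals alone 0 of the 40 genes passed in edgeR, beside 4.78% of all genes. At an unadjusted p under 0.05 in that setting, 7 of the 40 genes were lower and 0 higher. Of all 22238 genes, 1542 were then lower and 2952 higher. By DESeq2 9 passed, all lower, beside 7.97% of all genes: Pmvk, Mvd, Lss, Dhcr7, Stard4, Acly, Scd2, Elovl5 and Elovl6.

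Torin-treated stimulated cells were then set against naive cells, to show which stimulation changes were still present with the inhibitor. In this comparison 32.2% of genes passed, 16.4% higher and 15.8% lower. Of the 40 genes 10 rose, 10 fell and 20 did not pass, with a median log2 change of 0.03 beside -0.18 over all genes tested. Sterol synthesis had 6 rises and 4 falls (median 0.48), and the fatty acid branch 2 rises and 4 falls (median -0.61).

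Rises were led by Idi1, at 35.7 ± 14.5 CPM in Torin libraries (SD, n = 3) against 5.18 ± 3.17 CPM in naive libraries (n = 4), a log2 change of 2.78 (SE 0.42, adjusted p = 0.000529). Cyp51 rose by 1.96, Sqle by 1.85, Fdft1 by 1.31, Msmo1 by 0.82 and Fdps by 0.71. Insig1 rose by 1.49 (SE 0.27, adjusted p = 0.00174) and Scap by 0.90. In the fatty acid branch Fasn rose by 1.55 (SE 0.21, adjusted p = 0.000289) and Acaca by 1.38. Falls were led by Abcg1 (log2 change -4.31, SE 0.58, adjusted p = 0.000275), Elovl6 (-3.28), Fads2 (-3.14), Acss2 (-3.01) and Elovl5 (-2.44). Among sterol synthesis genes Dhcr7 (-2.03, SE 0.43, adjusted p = 0.00444), Tm7sf2 (-1.93), Mvd (-1.16) and Ebp (-0.81) were lower, and Insig2 (-0.72) fell in the sensing group. Dhcr7, Mvd and Insig2 had not passed with stimulation alone. Their Torin levels were 2.54 ± 1.06, 4.59 ± 1.19 and 21.8 ± 6.15 CPM, against 10.4 ± 2.68, 10.3 ± 3.01 and 35.9 ± 6.65 CPM in naive libraries.

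Of the 20 calls, 12 held under each of up to 20 other settings: Idi1, Cyp51, Tm7sf2, Ebp, Dhcr7, Insig1, Abcg1, Acss2, Acaca, Fasn, Elovl5 and Elovl6. The call of Mvd ended without Torin 3 (log2 change -0.96), Scap without Torin 3 (0.62) and Fads2 without Torin 1 (-2.78), while Fads2 was -4.81 and Abcg1 -4.94 without Torin 4. Fdps and Msmo1 ended without any of naive 3 and 4 and Torin 1 and 4 (0.60 to 0.71 and 0.59 to 0.86). Sqle ended without any of naive 4 and Torin 1 and 4 (1.65 to 1.77), Fdft1 also without naive 2 or 3 (1.18 to 1.297), and Insig2 without any of naive 2 and 4 and Torin 3 and 4 (-0.72 to -0.53). Lss and Acly passed without naive 1 (1.53 and 0.61), Hmgcs1 without Torin 3 (0.99) and Fads1 without naive 3 (-1.08). Scd2 passed without Torin 4 (-3.67), and Abca1 without naive 1 (-2.70) or Torin 4 (-3.20). With library totals alone the median of all genes was -0.52 and the 40 genes gave 5 rises and 12 falls, beside 10.3% and 20.5% of all genes. Fdps, Fdft1, Sqle, Msmo1 and Scap then missed the threshold (0.36, 0.95, 1.47, 0.48 and 0.54), and Fads1 and Abca1 passed (-1.23 and -2.68).

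Per kilobase of exon, levels differed between the 40 genes by orders of magnitude. In naive cells Ebp stood highest at 40.9 ± 1.52 CPM per kb, beside Elovl1 at 39.1 ± 6.71, a pair that did not differ beyond its spread. Pmvk (15.3), Fdps (12.1), Elovl5 (10.6) and Insig2 (10.3) followed. In stimulated cells the order was Elovl1 (56.0), Pmvk (33.1), Fdps (29.1), Ebp (21.8) and Idi1 (16.2). Idi1 moved from place 25 of 40 in naive to place 5 in stimulated and Torin cells, and Abcg1 from place 16 to place 35 in both. Fasn, an enzyme of the committed steps, stood at 0.861 CPM per kb in naive, 3.16 in stimulated and 2.52 in Torin cells. Acacb, Me1, Scd1 and Abca1 held the 4 lowest places in each group, at most 0.0786 CPM per kb.

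**Figure D4:**
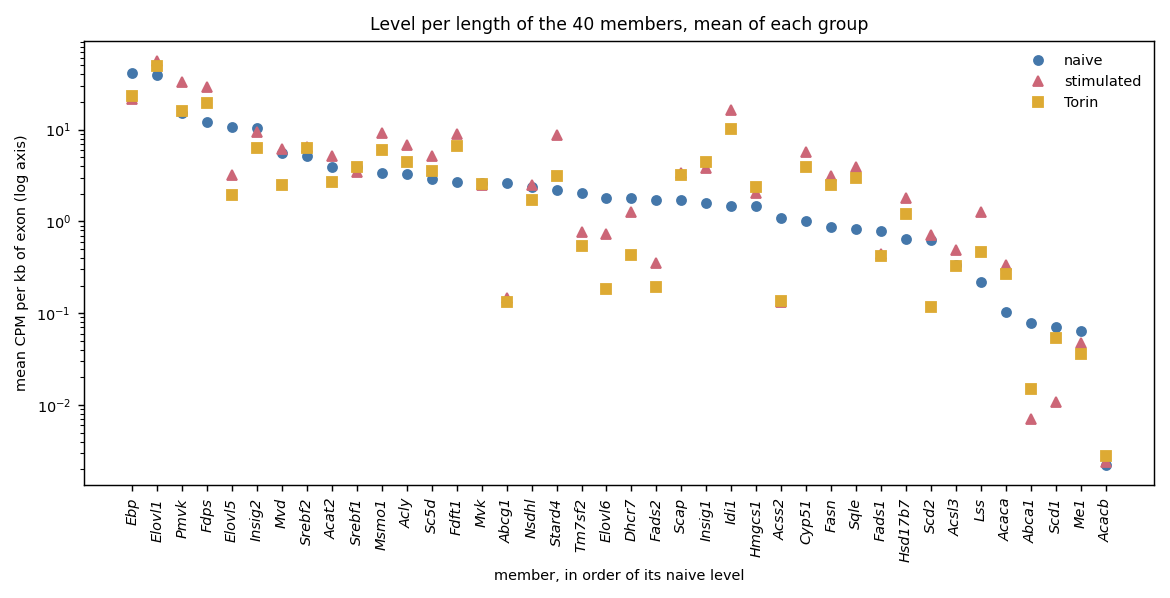
Mean CPM per kilobase of exon (vertical log axis) of the 40 genes in naive, stimulated and Torin cells, in order of the naive level. Idi1 moves up from 1.48 to 16.2 with stimulation, Abcg1 down from 2.61 to 0.145, and Acacb is lowest in each group.

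Other genes of the same pathways were read from lists by function. The isoprenoid branch, which turns farnesyl diphosphate into prenyl groups and quinone tails, had 6 rises and 1 fall among 12 tested genes with stimulation. Pdss1, a subunit of the synthase of the coenzyme Q tail, stood at 1.899 ± 0.862 CPM in naive cells and 11.9 ± 1.83 CPM in stimulated libraries and rose (log2 change 2.65, adjusted p = 0.000111), and Ggps1, the geranylgeranyl diphosphate synthase, fell by 0.35 (adjusted p = 0.0309). Of 7 tested genes of SREBP processing and lipin, 4 fell and 3 did not pass, led by Lpin1, a phosphatidate phosphatase held back by mTOR complex 1, at -2.24 (adjusted p = 0.00319). Of 9 LXR factors and targets, 6 fell and 3 did not pass, led by Smpdl3a, a phosphodiesterase, from 31.4 ± 1.22 to 0.773 ± 0.875 CPM (log2 change -5.34, adjusted p = 0.00457). The falls of Abca1 and Abcg1 stood beside these 6, and 20.2% of all genes tested fell as well.

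Genes of storage and breakdown went in both directions, beside 19.2% of all genes higher and 20.2% lower. Of 12 tested genes of sterol esterification, storage and lysosomal release, 1 rose and 5 fell: Dgat2, the last enzyme of triglyceride synthesis, rose by 2.12 (adjusted p = 0.0188), and Lipa, the lysosomal acid lipase, fell by 2.59 (adjusted p = 1.94e-05). Of 19 genes of fatty acid oxidation, 2 rose and 9 fell. Etfa, an electron carrier of that pathway, rose by 0.85 (adjusted p = 0.00193). Cpt1c was listed at 0 in each stimulated library, but was already low in naive 1 to 4, at 0.166, 1.73, 0 and 0.485 CPM. Among 13 other elongation and activation enzymes 7 rose and 3 fell, led by Hacd1, a dehydratase of the elongation cycle (2.64, adjusted p = 0.000759), and by the elongase Elovl7 (-3.02, adjusted p = 0.000237). The counts of these lists depend on the scaling. With library totals alone, rises and falls were 2 and 4 in this last list, 0 and 11 in oxidation and 0 and 6 in storage. They were 3 and 2 in the isoprenoid branch, 0 and 6 in SREBP processing and 0 and 7 in the LXR list. Of all genes, 11.7% rose and 29.4% fell in that setting.

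Under Torin against stimulated cells, few genes of these lists passed. Dgat2 averaged 18.1 ± 5.51 CPM in stimulated cells and 2.25 ± 1.12 CPM in Torin libraries and fell (log2 change -3.01, SE 0.72, adjusted p = 0.0415). Npc2, a lysosomal cholesterol carrier, averaged 280.0 ± 52.7 and 645 ± 62.2 CPM in the same groups and rose (log2 change 1.20, SE 0.17, adjusted p = 0.00602). Mbtps1, the protease that makes the first cut in SREBP, rose by 0.79 (adjusted p = 0.0444) and Rxrb, a partner of LXR, by 0.89 (adjusted p = 0.0255). The dehydratases Hacd3 and Hacd2 fell by 0.996 and 0.70 (adjusted p = 0.0443 and 0.015). With library totals alone 0 genes of the storage list and 0 of the elongation list were lower, so the calls of Dgat2, Hacd3 and Hacd2 ended. The storage, SREBP processing and LXR lists each still had 1 gene higher. By DESeq2 4 storage genes and 3 elongation genes were lower. In edgeR 0 of 12 isoprenoid genes passed. At an unadjusted p under 0.05, 1 was higher and 1 lower, and by DESeq2 also 1 and 1. Of 19 genes of fatty acid oxidation 0 passed. Unadjusted, 3 were higher and 3 lower, beside 9.97% and 10% of all genes, and by DESeq2 2 were higher and 2 lower, beside 5.98% and 7.97%.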

How the data were processed

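RNA of 11 OT-I CD8+ T cell libraries was measured by sequencing, with a SMARTer ultra-low poly(A) kit per the labels' protocols. The authors deposited estimated counts per gene and per transcript. All are whole numbers, so nothing was rounded. Per the submitters' processing notes, reads were handled on build mm39. The same notes list StringTie 2.1.0, STAR 2.7.1a, DESeq2 1.30.1, SAMtools 1.9 and R 4.0.5, with no role given. StringTie estimates counts from coverage. Symbols and exon lengths came from GENCODE M21 (GRCm38), matched by identifier without version: 52081 of 55414 genes (94.0%, holding at least 98.6% of counts in each library) received a symbol.

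Genes passing filterByExpr (minimum count 10; 22238 genes) entered edgeR 4.0.16 (R 4.3.3). TMM factors ran from 0.727 to 1.35. All 11 libraries shared a model of group means, tested by quasi-likelihood F. The Benjamini-Hochberg adjustment ran over all 22238 genes, and the threshold was 0.05. CPM are counts over TMM-scaled library sizes, and the common biological coefficient of variation was 0.79. A gene's SE is the log2 change over the square root of F. Alternatives were the Wald test of DESeq2 1.42.0, its size factors within edgeR, scaling by totals alone, testing unfiltered genes or those with a mean CPM of 5 or more, a replicate block, a fit of only the 2 groups compared, and leaving out each library, number 2 or number 4. The steps were tested on simulated data.

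The labels do not explain the replicate numbers. Deviations from the group mean of log2 CPM (prior count 2) correlated between libraries of the same number at 0.16, 0.23, 0.15 and 0.29 (stimulated and naive, numbers 1 to 4) and 0.11, 0.15 and 0.31 (Torin and stimulated, numbers 1, 3 and 4). For Torin and naive they were 0.08, 0.13 and 0.28. The highest correlation with another number was 0.07. B cell genes summed to 47400, 14390 and 13240 CPM in naive 4, stimulated 4 and Torin 4, far above the other libraries. Granulocyte genes summed to 8767 and 2099 CPM in naive 2 and stimulated 2, also far above the others. The numbers may therefore mark pairs, and as the same libraries enter each comparison, this holds for Torin against naive as well. The main fit, with its SEs and p-values, did not use the numbers, and neither did the main permutation test of Srebf1. The fit with a block is an alternative and is given where it changed a call.

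The 40 genes and all lists were chosen with earlier results of these data known. Values per library are given for the largest rise and fall past the threshold in each role, all sensing, carrier and efflux genes, Fasn, Acaca, Scd1, Scd2, Hmgcs1, Sqle and Idi1. Pmvk, Dhcr7 and the genes of Torin calls were added after their values were seen. Other genes are the largest rise and fall per list. The list of SREBP processing had 8 genes, of which 7 were tested. Promoter sequences are from RefSeq (GRCm38.p6, 32851 promoters).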

Additional observations from a re-analysis of the deposited data

Results flagged for a closer look

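Within groups of 4, a library was set apart by Dixon's test, which compares its gap to the nearest other library with the group's range. Of 80 groups tested over the 40 genes, 5 met this, and about 1 in 20 would by chance. Tm7sf2, the sterol reductase that fell with stimulation, was lowest in naive 4 at 5.78 CPM, with the other naive libraries at 9.78 to 10.5 CPM. Acly, the citrate lyase, was highest in naive 1 at 23.7 CPM, with the others at 14.4 to 15.9 CPM. Nsdhl, a sterol demethylation enzyme, was highest in stimulated 4 at 8.59 CPM, with the others at 6.45 to 6.70 CPM. Scd1, a desaturase, was highest in naive 4 at 1.24 CPM, with the others at 0.0106 to 0.0761 CPM. Acacb, a carboxylase, stood at 0.0918 CPM in stimulated 4 and was listed at 0 in the other stimulated libraries. Naive 4 and stimulated 4, which hold 4 of these 5 values, also held 47400 and 14390 CPM of B cell genes. The part of B cells in these values was not tested.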

How the results depend on the processing

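Values of single genes, called or not, were compared with the main fit by their side of the threshold. For stimulated against naive cells 740 values were unchanged in this sense, with 37 calls lost and 9 gained. The numbers were 731, 47 and 8 for Torin against stimulated and 733, 38 and 16 for Torin against naive cells, and no called value changed sign. Unchanged values include genes that never passed, so these numbers do not measure how firm the calls are. The 4 calls of Torin against stimulated cells ended in 9 (Pmvk), 10 (Mvd), 15 (Stard4) and 13 (Elovl6) of 20 settings. By DESeq2, Torin against stimulated cells gave 2740 genes in place of 1027, with 4 sterol and 4 fatty acid genes lower in place of 2 and 1. With library totals alone, 2 fatty acid genes rose with stimulation in place of 4, 0 sterol and 0 fatty acid genes fell with Torin, and 2 sterol genes rose in Torin against naive cells in place of 6. With no filter the Torin comparison gave 656 genes, with 1 sterol and 0 fatty acid genes lower. With a mean CPM of at least 5, 1 fatty acid gene rose in Torin against naive cells in place of 2, since Acaca was then left out. Without number 2 the Torin comparison gave 338 genes, and without number 4 it gave 55, each with 0 sterol and 0 fatty acid genes lower, and without number 4, 2 sterol genes rose in Torin against naive cells. The cause of these shifts was not tested, other than that fewer libraries or genes entered.

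Leaving out single libraries gave 7922 to 8569 genes for stimulation, with 8 to 10 sterol genes higher, 2 to 2 lower, 3 to 5 fatty acid genes higher and 2 to 4 lower (2 without naive 1, naive 2, stimulated 3 or stimulated 4). Torin against stimulated gave 144 to 1058 genes: 144 without Torin 3, 261 without Torin 1, 541 without Torin 4, 441 without stimulated 4 and 463 without stimulated 2. Sterol genes lower ran from 0 to 3 (0 without stimulated 1, stimulated 4 or any Torin library, 1 without naive 3 or stimulated 2) and fatty acid genes lower from 0 to 1 (0 without naive 2 or 3, stimulated 1, 2 or 4, or any Torin library). Torin against naive gave 5343 to 7330 genes, 2 to 7 sterol genes higher (2 without naive 4, Torin 1 or Torin 4, 3 without naive 3), 3 to 4 lower, and 2 to 3 fatty acid genes higher and 3 to 5 lower. The long-form share of Srebf1 differed by 0.294 to 0.912 points (stimulated and naive) and -0.537 to 0.422 points (Torin and stimulated).

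With the replicate block, 9163 genes passed for stimulation, 965 for Torin against stimulated and 7394 for Torin against naive cells. Beyond Fads1, Scd2 and Elovl6, named above with their blocked values, the block changed calls only in Torin against naive cells, where Lss (log2 change 1.25, adjusted p = 0.0303 by edgeR) and Scd2 (-3.05, adjusted p = 0.0113) passed. The Srebf1 differences paired by number were 0.603 (exact permutation p = 0.5, n = 4 pairs) and 0.093 points (p = 0.75, n = 3 pairs). Whether read depth limited these results was not tested. For Acacb, Me1, Scd1 and Abca1, at or near 0 in many libraries, changes were not detectable or rest on low counts.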

Other observations

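Acss2 differed between groups in its leading transcript as well as in its level. This was seen while reading the leading transcript of each of the 40 genes and was not tested. The transcript Acss2-201 held 94.3%, 94.9%, 89.4% and 94.1% of Acss2 counts in the naive libraries. Its share was 38.2%, 69.3%, 31.6% and 45.1% with stimulation. In Torin 1, 3 and 4 it held 31.0%, 76.9% and 81.0%. The stimulated and Torin shares rest on levels of 0.815 to 2.07 CPM, against 8.39 to 12.8 CPM in naive libraries. Abcg1 kept 88.0% or more of its counts in Abcg1-201 in each library. Of the exon bases of Acss2, 3.9% overlap Gss, 3.3% Acss2os and 1.9% Ggt7, all on the opposite strand. The part of the low level or of reads from these genes in the Acss2 shares was not tested.

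Elovl6, the elongase that was lowest under Torin, had Elovl6-201 as its leading transcript. This transcript held 52.0% to 78.5% of counts in naive, 39.8% to 78.6% in stimulated and 14.9% to 45.0% in Torin libraries. The Torin shares rest on 0.775 to 1.87 CPM and were not tested. Leading shares also varied widely within a group in other genes: Dhcr7 (0.0% to 94.3%) and Acat2 (29.8% to 96.7%) in stimulated and Lss (0.0% to 69.0%) in naive libraries. Idi1 rose with 1 transcript, Idi1-201, holding 85.5% to 94.3% of its counts in stimulated and 89.1% to 99.8% in naive libraries.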
